A study of Mus musculus with 8 samples.

Results

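The genes described here are the 7 core genes of MHC class II antigen presentation that were chosen by symbol from the feature lists: H2-Aa, H2-Ab1, H2-Eb1, Cd74, H2-DMa, H2-DMb1 and Ciita. All 7 were found among the 31053 genes of the files, in each of 8 single-cell RNA sequencing libraries of mouse dorsal skin. Each library was made from 4 mm biopsies of female BALB/c mice of 14 to 16 weeks, with 4 libraries after injection of PBMCsec and 4 after vehicle. PBMCsec is the secretome of irradiated human peripheral blood mononuclear cells, and no allele or other treatment is named for either group. The labels name a subcutaneous injection, whereas the study's methods describe injection into the skin of healed scars. The labels give neither the time point nor the control solution of a mouse, so the libraries were compared by treatment alone. Whether each library is a separate mouse is likewise not stated in the labels, and the p-values measure the spread between libraries.

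MHC class II molecules are pairs of an alpha and a beta chain that carry peptides of taken-up proteins to the cell surface, where CD4+ T cells read them. H2-Aa and H2-Ab1 encode the alpha and beta chain of the I-A molecule, and H2-Eb1 encodes the beta chain of I-E. Cd74, the invariant chain, escorts new class II molecules to the endosome and blocks their groove on the way. H2-DMa and H2-DMb1 encode the DM chaperone, which takes the last piece of the invariant chain out of the groove and lets peptides bind. Ciita is the transactivator that is recruited to the promoters of these genes and switches them on together. In skin, Langerhans cells of the epidermis, DCs of the dermis and many macrophages are the cells known for class II.

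In the GENCODE M21 annotation of GRCm38, 5 of the 7 genes lie close together on chromosome 17. H2-DMa spans chr17:34119541-34139101, H2-DMb1 chr17:34153072-34160230 and H2-Ab1 chr17:34257689-34269419, all on the plus strand. H2-Aa spans chr17:34282744-34287823 on the minus strand and H2-Eb1 chr17:34305867-34316674 on the plus strand. Ciita spans chr16:10480059-10528418, and Cd74 lies on another chromosome. H2-DMa overlaps Brd2 on the other strand, Ciita overlaps Dexi and H2-Eb1 overlaps the antisense gene Gm20513. H2-DMb1 has a near neighbour of similar sequence, H2-DMb2. Of the 31-letter words in the last 500 bases of the longest H2-DMb1 transcript, 25.3% also occur in H2-DMb2, so reads could be split between this pair and the values of H2-DMb1 are less certain. The reference genome is of another strain than BALB/c, and class II chains differ between strains, so the levels of H2-Aa, H2-Ab1 and H2-Eb1 may hold losses that could not be measured.

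The promoters of class II genes share short boxes, named X, X2 and Y, where the factors that recruit Ciita bind. RefSeq promoter windows on GRCm38.p6 (250 bases before to 50 after the start) were at hand for 4 of the 7 genes. The 130 bases before the start of H2-Aa (chr17:34287824-34287953, minus strand) and H2-Eb1 (chr17:34305737-34305866, plus strand) are shown because both chains are among the highest values below. Capitals mark the core of the Y box (ATTGG), of the X2 box (TGACG) and of the X box (AACNGATG), each searched on both strands.
H2-Aa: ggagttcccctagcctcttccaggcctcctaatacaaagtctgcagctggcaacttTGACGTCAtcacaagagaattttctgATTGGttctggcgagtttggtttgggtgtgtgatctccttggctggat
H2-Eb1: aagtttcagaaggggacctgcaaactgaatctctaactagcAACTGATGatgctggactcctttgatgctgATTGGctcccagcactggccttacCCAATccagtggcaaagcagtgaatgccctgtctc
H2-Eb1 held an X core 30 bases before a Y core, counted from first base to first base, and H2-DMb1 and its neighbour H2-DMb2 held the same pair 31 bases apart. H2-Aa held an X2 core, which reads as a match on both strands with 2 overlapping hits, 26 bases before its Y core. For H2-DMa, 1 of 2 windows held a Y core, 198 bases before the start, and the other held none of the 3 cores. Of all 32851 windows, 37.4% held a Y core, 20.8% an X2 core and 2.32% an X core. The X core followed by the Y core at 30 or 31 bases on the same strand was found in 5 windows (0.0152%), those of H2-Eb1, H2-DMb1, H2-DMb2, the class II gene H2-Eb2 and BC051142. A match of letters is a description of the window and not a measured binding site.

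The 8 libraries held 26231 barcodes and 14753926 to 37880651 UMIs each. After the study's filter, 6150 cells remained, between 151 and 1659 per library, and 4 of their barcodes occurred in more than 1 library. The members and the related gene lists were left out of the genes that define clusters, so no class was drawn from them directly, although genes that vary with them were kept. Clusters that carried the fixed markers of DCs, Langerhans cells or macrophages held 519 cells (8.44% of cells). Splitting them again gave 122 Langerhans-like, 101 dermal DC-like (Cd209a, Mgl2), 41 Xcr1 Clec9a DC-like, 84 macrophage-like and 68 monocyte-like cells. Another 32 cells fell in a sub-cluster led by Ccl22 and Ccr7, and 71 cells in sub-clusters that stayed unnamed. Cd207 was found in 99.2% of Langerhans-like cells and 0.99% of dermal DC-like cells, Cd209a in 89.1% of dermal DC-like cells, and C1qb in 86.9% of macrophage-like cells and 1.64% of Langerhans-like cells. Some other markers on the lists were shared between the classes. Of the macrophage markers, C1qa was found in 63.1% and Csf1r in 96.7% of Langerhans-like cells, and Mrc1 in 75.2% of dermal DC-like cells, of which 80.2% also held the monocyte marker Ccr2. Cd207 was also found in 58.5% of the Xcr1 Clec9a DC-like cells.

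Nearly all class II RNA lay in these 519 cells. They held 263054 of the 270080 UMIs of the 7 genes (97.4%), while holding 7.87% of all UMIs. The share ranged from 94.8% for H2-DMa to 98.7% for H2-DMb1. Langerhans-like cells alone, 122 of 6150 cells, held 37.8% of the UMIs of the 7 genes, and dermal DC-like cells held 21.3%.

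The classical chains H2-Aa, H2-Ab1 and H2-Eb1 were highest in Langerhans-like cells. Levels are given as UMIs per 1000000 UMIs of the class in a library (CPM), as mean ± SD over the libraries with at least 5 such cells. The protocol counts 1 tag per transcript at its 3′ end, so values were not divided by gene length. H2-Aa reached 22484 ± 2495 CPM in Langerhans-like cells (n = 6), 15375 ± 5642 in dermal DC-like cells (n = 7), 12201 ± 4609 in macrophage-like cells (n = 6) and 9418 ± 1355 in monocyte-like cells (n = 5). H2-Ab1 followed the same order, with 17893 ± 1884 CPM in Langerhans-like cells, 10379 ± 3597 in dermal DC-like cells, 7941 ± 3142 in macrophage-like cells and 6773 ± 1016 in monocyte-like cells. H2-Eb1 lay at 14939 ± 1723, 9019 ± 3421, 7795 ± 3154 and 5855 ± 1144 CPM in these 4 classes. For H2-Ab1 and H2-Eb1 Langerhans-like cells lay above the other 3 classes by more than the SDs, while for H2-Aa their SD overlapped that of dermal DC-like cells. Dermal DC-like, macrophage-like and monocyte-like cells overlapped within their SDs for each of the 3 chains. Xcr1 Clec9a DC-like cells had 5 cells in only 2 libraries and lay at 14999 CPM for H2-Aa, within the range of the dermal DC-like cells.

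The invariant chain Cd74 (chr18:60803848-60812652, plus strand) was the most abundant of the 7 in every one of these classes. In Langerhans-like cells it was at 42144, 42469 and 44926 CPM in PBMCsec libraries 1, 3 and 4, and at 40087, 41608 and 50414 CPM in vehicle libraries 1, 3 and 4. These 6 libraries lay close together, and the values after PBMCsec fell inside the range after vehicle. Dermal DC-like cells were more spread, from 12944 CPM in PBMCsec library 2 to 50099 CPM in vehicle library 3, with a mean of 30815 ± 12887 (n = 7). The library with the lowest value held 7 such cells. The SDs of Langerhans-like and dermal DC-like cells overlapped for Cd74. Macrophage-like cells had 23276 ± 8218 CPM (n = 6) and monocyte-like cells 19436 ± 1932 CPM (n = 5).

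**Figure D1:**
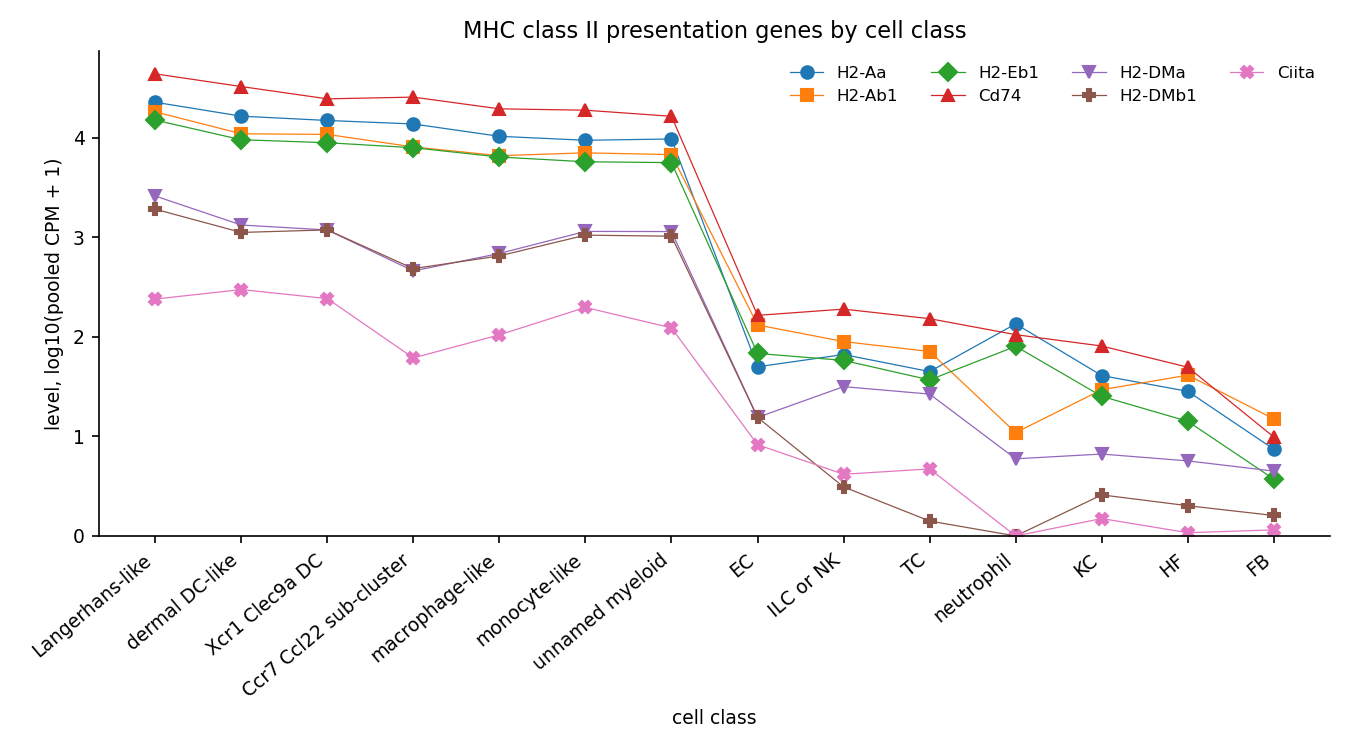
Level of each of the 7 genes (y axis, log10 of pooled CPM + 1) in each cell class (x axis), with 1 point per gene and class, pooled over all libraries and joined by a line for each gene. The 7 classes of DCs, Langerhans-like cells and macrophages lie on the left, with Cd74 between 16403 and 43768 pooled CPM, and the other classes follow on the right, with Cd74 at 189 pooled CPM or less.

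The DM chaperone lay below the classical chains in every one of these classes. H2-DMa was at 2587 ± 388 CPM in Langerhans-like cells (n = 6), 1265 ± 305 in dermal DC-like cells (n = 7), 1069 ± 176 in monocyte-like cells (n = 5) and 846 ± 368 in macrophage-like cells (n = 6). H2-DMb1 was at 1942 ± 361, 1069 ± 368, 959 ± 287 and 782 ± 330 CPM in the same classes. For both chains Langerhans-like cells stood above the SD of the others, and the other 3 classes overlapped. Counted against Cd74 in the same cells, UMIs of H2-DMa and H2-DMb1 together came to 10.4 ± 1.06 per 100 Cd74 UMIs in Langerhans-like cells (n = 6) and to 10.5 ± 1.57 in monocyte-like cells (n = 5). The same ratio was 8.28 ± 2.55 in dermal DC-like cells (n = 7) and 6.84 ± 1.16 in macrophage-like cells (n = 6), where the highest library (8.26) lay below the lowest library of Langerhans-like cells (8.39). The ratio of H2-Eb1 to H2-Ab1 UMIs went the other way, with 0.84 ± 0.04 in Langerhans-like, 0.86 ± 0.06 in dermal DC-like and 0.98 ± 0.05 in macrophage-like cells, whose lowest library (0.92) lay above the highest library of Langerhans-like cells (0.90).

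The transactivator Ciita was counted with 825 UMIs in all kept cells. Its mean was highest in dermal DC-like cells (297 ± 42.9 CPM, n = 7), followed by Langerhans-like cells (227 ± 89.9, n = 6), monocyte-like cells (166 ± 75.03, n = 5) and macrophage-like cells (119 ± 47.1, n = 6). Neighbours in this order overlapped within their SD. Within libraries Ciita differed by 0.50 ± 0.57 log2 units between dermal DC-like and Langerhans-like cells (higher in 4 of 6 libraries, exact permutation p = 0.16), and by 0.07 with whole clusters. In 6 of 6 libraries Ciita was higher in dermal DC-like than in macrophage-like cells, with a mean difference of 1.37 ± 0.68 on the log2(CPM + 1) scale (exact two-sided sign-flip permutation test, p = 0.031). With whole clusters this difference was 0.53 ± 0.61, higher in 6 of 8 libraries.

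Differences between classes were tested within libraries, over 49 combinations of gene and class pair, with Benjamini-Hochberg adjustment. With 5 or 6 libraries the exact test cannot go below p = 0.062 or p = 0.031, and no pair of classes passed the adjustment (lowest adjusted p = 0.096). Of the 7 genes, 6 were higher in Langerhans-like than in macrophage-like cells in 5 of 5 libraries, from 1.05 ± 0.54 log2 units for Cd74 to 1.83 ± 0.57 for H2-DMa (exact p = 0.062 each, the smallest that 5 libraries allow). H2-Ab1, H2-DMa and H2-DMb1 were lower in dermal DC-like than in Langerhans-like cells in 6 of 6 libraries, with differences of -0.72 ± 0.37, -0.99 ± 0.37 and -0.86 ± 0.48 (exact permutation p = 0.031, adjusted p = 0.096). H2-Aa, H2-Eb1 and Cd74 were lower in 5 of 6 libraries. Between dermal DC-like and macrophage-like cells the classical chains and Cd74 differed by 0.33 to 0.49 log2 units with SDs of 0.63 to 0.80 (n = 6), within the spread between libraries. In the 3 libraries with at least 10 cells of both classes the differences were larger, at 1.01 ± 0.20 (H2-Aa), 0.98 ± 0.19 (H2-Ab1), 0.82 ± 0.19 (H2-Eb1) and 0.99 ± 0.24 (Cd74), higher in dermal DC-like cells in 3 of 3 (exact permutation p = 0.25, the smallest that 3 libraries allow). These were PBMCsec libraries 1, 3 and 4, so this setting describes no vehicle library. No vehicle library had more than 8 macrophage-like cells. In vehicle library 3 H2-Aa was at 24034 CPM in dermal DC-like and 16788 CPM in macrophage-like cells. In vehicle library 4 it was at 17192 and 17780 CPM.

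Cells of 1 class differed widely in most classes. The 7 genes made up a median of 10.3% of a Langerhans-like cell's UMIs, with the 5th percentile at 7.60% and the 95th at 12.98%. In macrophage-like cells the median was 3.77% and the same range ran from 0.03% to 9.78%, and in dermal DC-like cells the median was 7.88% and the range 0.47% to 14.7%. All 122 Langerhans-like cells had at least 50 UMIs of the 7 genes. Of 84 macrophage-like cells, 62 had at least 50 and 13 had fewer than 10, and of 68 monocyte-like cells 51 had at least 50 and 11 had fewer than 10. Across single cells H2-Aa and Cd74 varied together in macrophage-like cells (Spearman rho = 0.95, 84 cells) and monocyte-like cells (0.92, 68 cells), and less closely in Langerhans-like cells (0.49, 122 cells). For H2-Aa and H2-DMa, rho was 0.72 in macrophage-like, 0.24 in dermal DC-like and 0.15 in Langerhans-like cells. These are correlations over cells of shared libraries, each scaled to its own depth, and are given as descriptions.

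**Figure D2:**
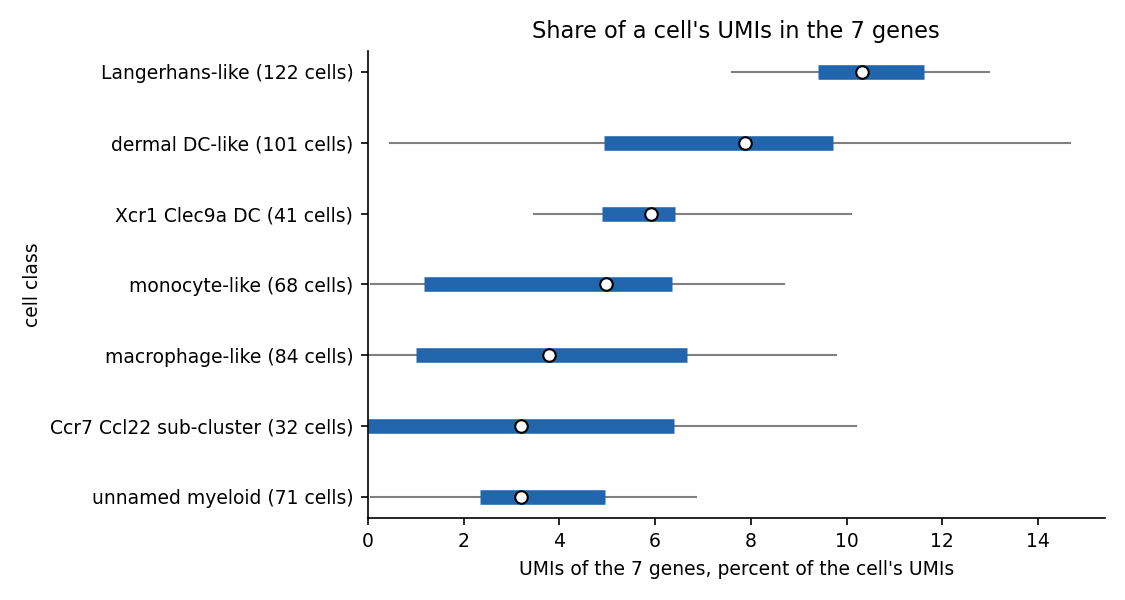
UMIs of the 7 genes as a percentage of a cell's UMIs (x axis) by cell class (y axis), over cells of all libraries. Circles are medians, bars run from the 25th to the 75th percentile and lines from the 5th to the 95th, and Langerhans-like cells have the highest median (10.3%).

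The sub-cluster led by Ccl22 and Ccr7 was not uniform, and it is therefore named only by these genes. Of its 32 cells, 8 had UMIs of at least 3 of Ccr7, Ccl22, Fscn1, Cacnb3 and Il4i1, which mark mature DCs, 8 had 1 or 2 of them, and 16 had none. These 16 cells were shallow (median 1464 UMIs), and 11 of them had fewer than 10 UMIs of the class II genes. The 8 cells with at least 3 markers came from 4 libraries and carried 3.93% of their UMIs in the 7 genes. In them Cd74 was at 17499 pooled CPM, H2-DMa at 138 and H2-DMb1 at 125, while 1399 UMIs of Cd74 were counted. No Ciita UMI was counted, which allows up to 37.5 CPM. DM chains came to 1.501 UMIs per 100 Cd74 UMIs in these 8 cells, against 9.28 over all 519 cells. With so few cells, and cells that were sorted by their markers after the values were known, this is a description without a test. Over the whole sub-cluster, H2-DMa differed from dermal DC-like cells by 2.03 ± 0.91 log2 units (higher in dermal DC-like cells in 3 of 3 libraries, exact permutation p = 0.25, the smallest that 3 libraries allow). These were PBMCsec libraries 1, 3 and 4, and no vehicle library had enough cells.

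Outside these classes Cd74 was at 189 pooled CPM or less, against 16403 or more within them. It was at 163 pooled CPM in ECs, 151 in TCs, 79.9 in KCs and 8.85 in FBs. After each cell was thinned to 1000 UMIs, Cd74 was found in 3.601% of TCs (95% exact interval 2.27 to 5.40%), 2.74% of KCs (1.78 to 4.01%) and 1.28% of FBs (0.77 to 1.99%), against 100% of 122 Langerhans-like cells. Before thinning the shares were 7.64%, 10.7% and 6.31%, at median depths of 3249 UMIs in TCs, 10975 in KCs and 8974 in FBs. FBs, which are not known for class II at rest, are given as the comparison class. Intervals cover counting error only.

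In KCs and TCs most of the signal sat in a few cells. Of 927 KCs, 4 had at least 50 UMIs of the 7 genes, and these held 64.4% of the KC total, with 3 of the 4 carrying Cd207. Of 615 TCs, 4 had at least 50 and held 63.9% of the TC total, and none of them carried Cd207, Cd209a, C1qb or Lyz2. No FB reached 50, and the highest had 21. Among 84 ECs, 6 (7.14%) had at least 10 UMIs, against 2 of 1489 FBs (0.134%). Scrublet scores of the 4 KCs and the 4 TCs were outside the highest 5% of their library. So were those of 1 ILC or NK cell and of 5 cells of other unnamed clusters with at least 50. All 3 HF cells with at least 50, which held 59.3% of the HF total, were inside the highest 5%. Each carried Cd209a, C1qb or Lyz2. The only EC with at least 50 was inside it too. Whether any of these cells hold RNA of 2 cells was not tested further.

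In several classes low-level UMIs did not keep the proportions found in DCs and macrophages. Among UMIs of H2-Ab1 and Cd74, H2-Ab1 made up 27.8% (27.53 to 27.98%) in DCs and macrophages. In FBs with fewer than 10 member UMIs it made up 64.3% (58.5 to 69.9%), in HF cells 79.5% (75.5 to 83.1%), in TCs 63.4% (55.4 to 70.8%) and in KCs 37.7% (30.8 to 45.0%). The 609 TCs with fewer than 10 member UMIs held 55 UMIs of H2-DMa beside 59 of Cd74 and 1 of H2-DMb1. The within-library test sums all cells of a class, so it kept the few cells with many UMIs. Of the UMIs in TCs, 102 of 170 for H2-Ab1, 59 of 366 for Cd74 and 55 of 62 for H2-DMa lay in cells with fewer than 10. On the scale of this test, H2-Ab1, Cd74 and H2-DMa were higher in TCs than in FBs in 8 of 8 libraries, by 2.36 ± 1.30, 3.61 ± 1.72 and 2.95 ± 1.27 log2 units (exact permutation p = 0.0078, the smallest that 8 libraries allow, adjusted p = 0.096). TCs were shallower than FBs, with medians of 3249 against 8974 UMIs, and the part of depth in these differences was not tested. H2-Eb1 was higher in KCs than in FBs in 8 of 8 libraries by 2.74 ± 2.22 (exact permutation p = 0.0078, adjusted p = 0.096). Of the 245 H2-Eb1 UMIs in KCs, 50 lay in cells with fewer than 10 member UMIs. The sizes depend on the constant added to such low levels, and on the log2(CPM + 10) scale H2-Eb1 differed by 1.38 ± 1.38 between KCs and FBs, and H2-DMa by 1.44 ± 0.46 between TCs and FBs, again higher in 8 of 8 libraries.

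**Figure D3:**
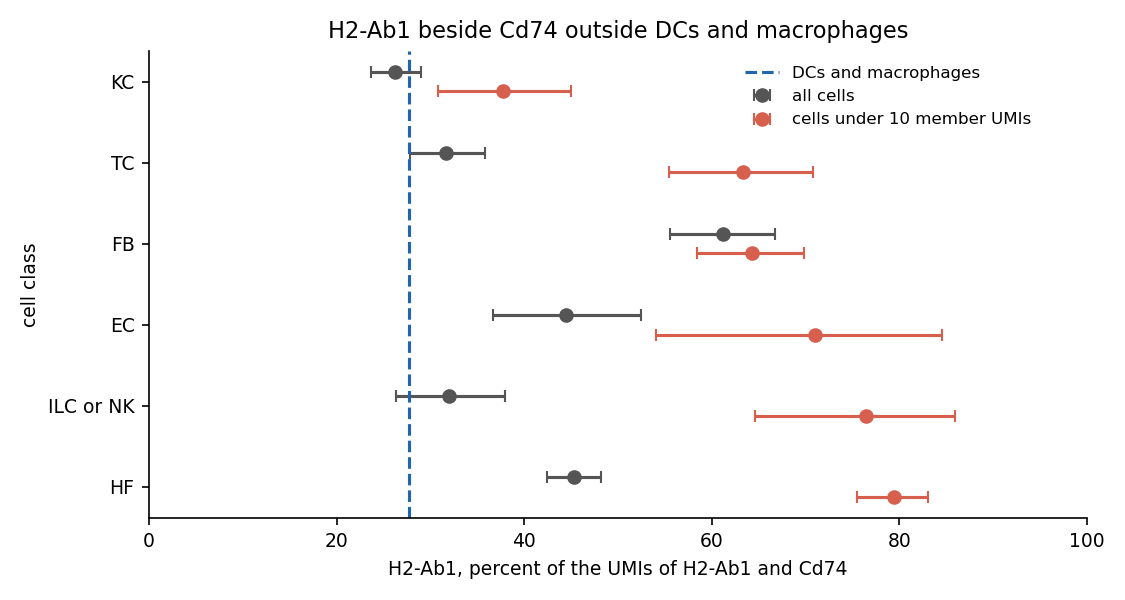
H2-Ab1 as a percentage of the UMIs of H2-Ab1 and Cd74 (x axis) in 6 cell classes (y axis), over all cells (grey) and over cells with fewer than 10 UMIs of the 7 genes (red), with 95% exact binomial intervals. The dashed line is the value in all DCs and macrophages (27.8%), and the red points of FBs (64.3%) and HF cells (79.5%) lie to its right. Not shown are neutrophils (8.70%) and DCs and macrophages (14.0%) with fewer than 10 UMIs of the 7 genes.

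The comparison of PBMCsec with vehicle asks whether the treatment was followed by another level of class II RNA. In the DCs and macrophages as 1 class, all 7 genes had a lower mean after PBMCsec, none passed the test, and no gene's groups were apart. edgeR called 0 of 5583 genes (0% of genes tested) at an adjusted p under 0.05, so a count of 0 members is what the background gives. Without adjustment 261 genes (4.67%) had p under 0.05, among them no member, while DESeq2 called 8 genes and limma 0, again without a member. H2-Aa was at 13534, 14279, 15332 and 14091 CPM (scaled by TMM) in the PBMCsec libraries and at 11346, 18289, 16735 and 19257 CPM in the vehicle libraries. Vehicle library 1 was the lowest of all 8 and the other 3 vehicle libraries were above every PBMCsec library. The difference was -0.20 on the log2 scale (SE 0.15, adjusted p = 0.9997, edgeR).

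The same pattern of libraries held for H2-Ab1, H2-Eb1 and, with an overlap, for Cd74. H2-Ab1 had 9917, 10164, 11005 and 10027 CPM after PBMCsec against 8486, 12983, 12502 and 13652 CPM after vehicle. H2-Eb1 had 8684, 8195, 9416 and 8714 CPM against 6665, 11408, 10245 and 12261 CPM. Cd74 had 23876, 26259, 29928 and 27098 CPM against 20848, 29428, 32256 and 37470 CPM. In each of these genes vehicle library 1 was lowest, and for Cd74 vehicle library 2 also lay below PBMCsec library 3. Their log2 differences were -0.21 (SE 0.15), -0.21 (SE 0.17) and -0.16 (SE 0.16), with adjusted p = 0.9997 in edgeR for each.

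The DM chains had the largest differences of the 7. H2-DMa was at 970, 1166, 1546 and 1544 CPM after PBMCsec and at 1385, 1965, 1638 and 1770 CPM after vehicle. Only vehicle library 1 lay within the PBMCsec range. H2-DMb1 was at 876, 1121, 1105 and 1353 CPM against 1092, 1489, 1334 and 1723 CPM, with overlapping groups. The log2 differences were -0.37 (SE 0.19) and -0.34 (SE 0.19), both with adjusted p = 0.9997 in edgeR. Ciita was at 179, 191, 227 and 209 CPM against 274, 251, 177 and 149 CPM, with PBMCsec libraries inside the vehicle range and a log2 difference of -0.05 (SE 0.23).

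**Figure D4:**
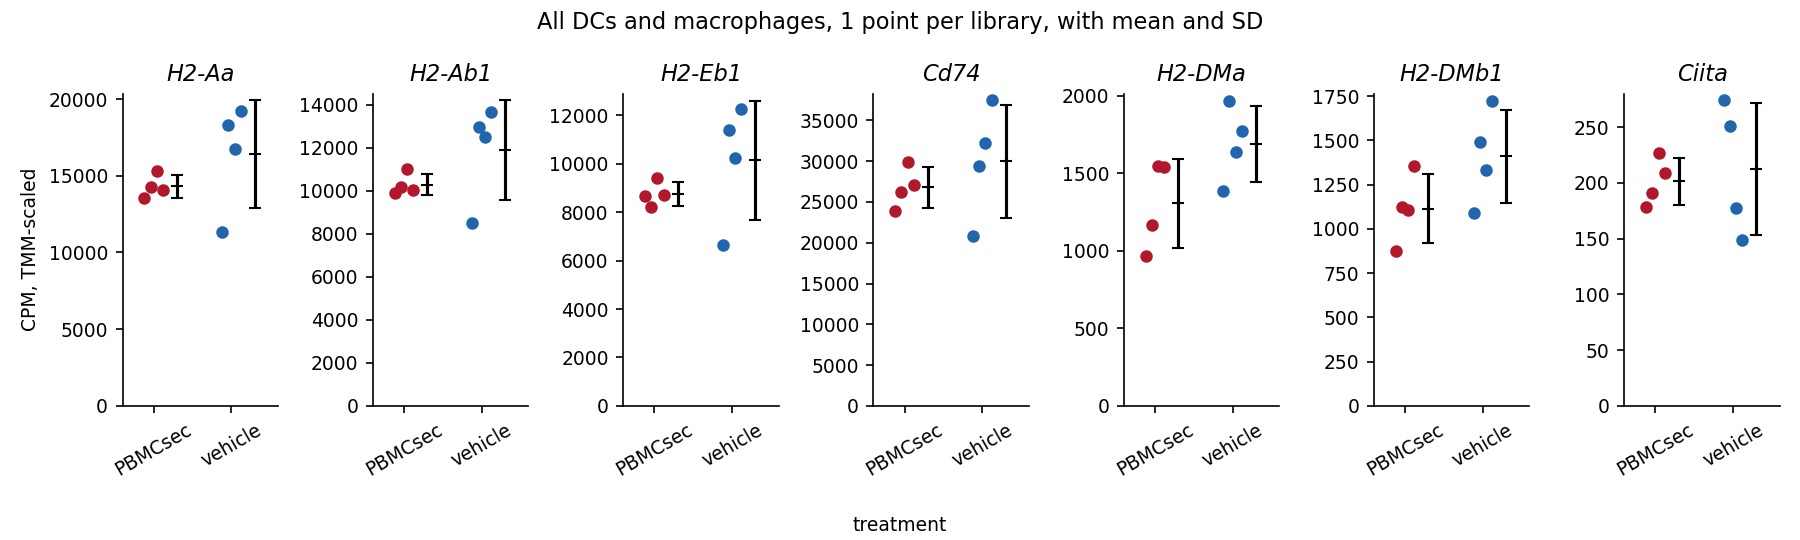
CPM (y axis, scaled by TMM) of each of the 7 genes in all DCs and macrophages of a library, by treatment (x axis), with 1 point per library and the mean and SD of the 4 libraries beside it. The groups overlap for every gene, and vehicle library 1 is the lowest vehicle point for all genes except Ciita.

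The size of these differences moved with single libraries, though not alike for all genes. Without vehicle library 4 several came closer to 0, with -0.03 for Cd74, -0.10 for H2-Aa and H2-Eb1, -0.13 for H2-Ab1 and -0.22 for H2-DMb1. H2-DMa changed little (-0.34), and Ciita lay further from 0 (-0.19). Without vehicle library 1, 6 members had p under 0.05 before adjustment, from -0.31 for Cd74 to -0.45 for H2-DMa and H2-DMb1, while 1.77% of the genes tested were lower at this p, and none passed adjustment (adjusted p from 0.78 to 0.92, edgeR). Beside the levels, the make-up of the class differed. In PBMCsec libraries macrophage-like cells formed 21.5, 30.3, 17.1 and 18.5% of the class, against 8.70, 13.3, 7.62 and 14.8% in vehicle libraries, without overlap. For Langerhans-like cells the percentages were 13.9, 12.1, 27.1 and 18.5% against 26.1, 26.7, 31.4 and 25.9%, which overlapped. The 8 KC markers together ranged from 101 to 247 CPM with PBMCsec and from 80.7 to 990 CPM with vehicle, and the 11 macrophage markers from 3484 to 4937 CPM and from 1667 to 3994 CPM. The part of the make-up in the differences was not tested. Cd74 differed by -0.02 log2 units within Langerhans-like and by -0.41 within dermal DC-like cells, and H2-Aa by 0.04 and -0.32. In simulated counts of this comparison the test called 9% of the genes with a 2-fold change and 86% of those with a 4-fold change. These counts were drawn with the same dispersion for every gene and cover genes of all levels. They therefore do not tell what size of change could be detected in the members.

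By class, few libraries had enough cells. With at least 10 cells in 3 libraries per group, no sub-cluster could be tested, and with at least 5, Langerhans-like cells (3 against 3 libraries) and dermal DC-like cells (4 against 3) could. edgeR called 0 of 1868 and 0 of 1821 genes (0% each). In Langerhans-like cells the 7 differences ran from -0.19 for H2-DMa (SE 0.23) to 0.48 for Ciita (SE 0.37), with 4 above 0. In dermal DC-like cells they ran from -0.41 for Cd74 (SE 0.40) to 0.14 for H2-DMa (SE 0.28), and with the library number as a block these 2 were -0.05 and 0.30. For H2-DMa, Langerhans-like cells had 1842, 2627 and 2765 CPM after PBMCsec and 2645, 2660 and 2982 CPM after vehicle, with PBMCsec library 1 alone at the low end.

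In macrophage-like cells the groups lay apart for several members, on few cells. H2-Aa was at 6992, 14054, 8391 and 9202 CPM in the 4 PBMCsec libraries, from 10 to 22 cells each, and at 16788 and 17780 CPM in vehicle libraries 3 and 4, from 8 cells each. Cd74 was at 12543, 25684, 17805 and 19067 CPM against 30416 and 34142 CPM, and H2-Ab1 at 4398, 7855, 5791 and 6135 CPM against 11492 and 11977 CPM. Both vehicle libraries lay above all 4 PBMCsec libraries for the classical chains, Cd74 and H2-DMb1, and overlapped them for H2-DMa and Ciita. Vehicle libraries 1 and 2 had 2 cells each, with 56 and 126 UMIs of Cd74. With 8 cells each, vehicle libraries 3 and 4 had 1011 and 1565. The difference was therefore not tested, and how many of all genes lay apart in these libraries was not counted. In monocyte-like cells Cd74 was at 20798, 18946 and 16305 CPM after PBMCsec and 20075 and 21054 CPM after vehicle, with no such gap. When macrophage-like and monocyte-like cells were tested as 1 cluster over all 8 libraries, a choice made after the cells were counted, Cd74 differed by 0.07 (SE 0.34) and H2-Aa by -0.04 (SE 0.30), and edgeR called 0 of 1725 genes (0%).

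**Figure D5:**
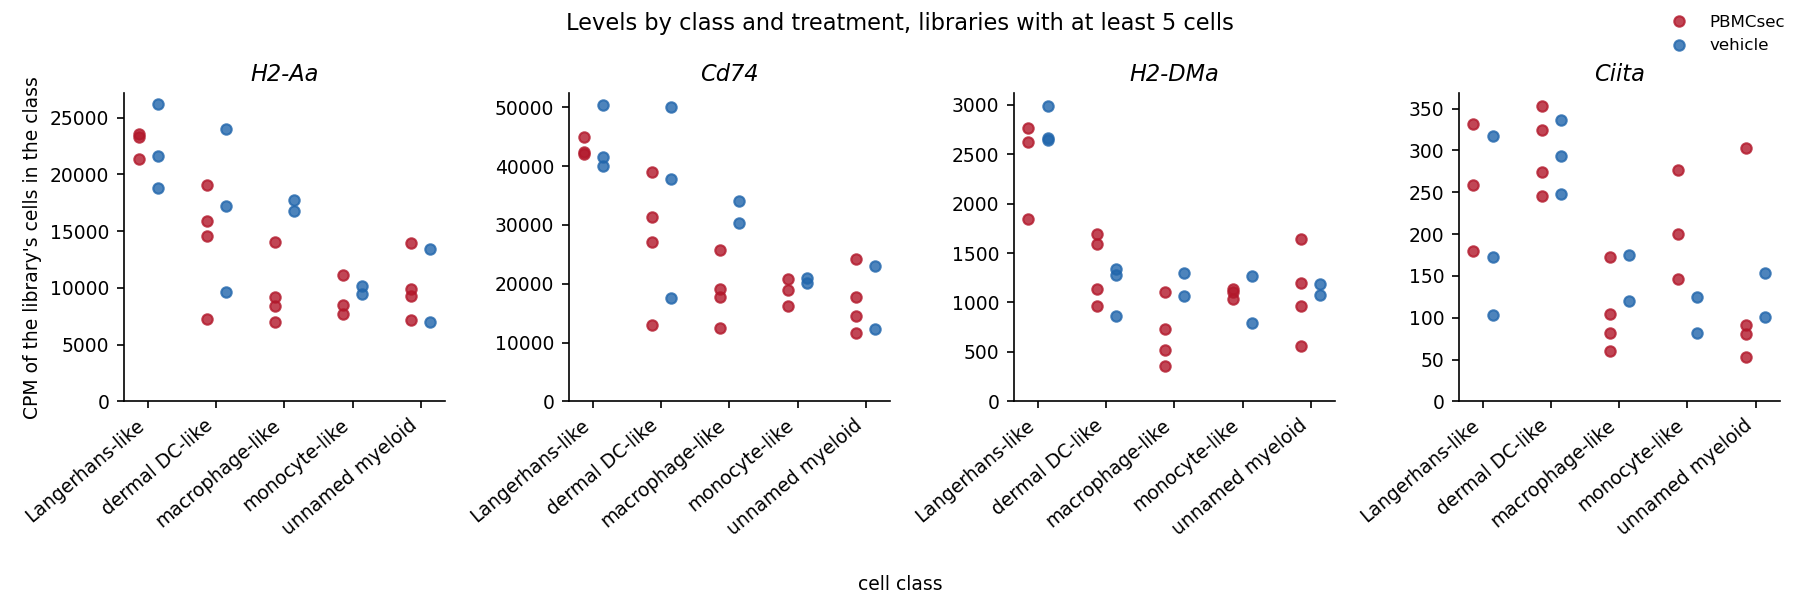
CPM (y axis) of H2-Aa, Cd74, H2-DMa and Ciita by cell class (x axis) and treatment (PBMCsec red, vehicle blue), with 1 point per library that had at least 5 cells of the class. In macrophage-like cells both vehicle points of Cd74 (30416 and 34142 CPM, from 8 cells each) lie above the 4 PBMCsec points, and in Langerhans-like cells the points mix. How many of all genes lie apart in these macrophage-like libraries was not counted.

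The share of DCs and macrophages with a UMI of a member did not separate the groups. After thinning to 1000 UMIs, which left out 8 of 519 cells, Cd74 was found in 90.9 ± 3.2% of cells after PBMCsec and 91.3 ± 9.0% after vehicle (n = 4 each, exact two-sided permutation p = 0.97). H2-DMa was found in 55.5 ± 15.1% and 63.8 ± 5.9% (exact permutation p = 0.43) and Ciita in 14.3 ± 3.6% and 18.1 ± 7.9% (exact permutation p = 0.37). Adjusted over the 7 genes, every exact permutation p was 0.97. Thinned to 2000 UMIs, which left out 36 PBMCsec and 15 vehicle cells, all 7 genes were found in fewer cells after PBMCsec, by 2.60 percentage points for Cd74 to 12.5 for H2-DMa (exact permutation p from 0.057 to 0.66, adjusted p from 0.15 to 0.66). Without thinning, H2-DMa was found in 84.5 ± 8.0% and 84.1 ± 14.3% of cells. DCs and macrophages made up 10.1 ± 1.17% of cells after PBMCsec and 8.86 ± 4.27% after vehicle (n = 4 each, exact permutation p = 0.63), with 15.2% in vehicle library 1 against 6.33 to 7.21% in the other vehicle libraries. Fewer cells and less RNA per cell cannot be told apart in the sums over whole libraries. In those sums Cd74 was at 3064, 3890, 2416 and 2342 CPM after PBMCsec and 4812, 1986, 1551 and 1989 CPM after vehicle, vehicle library 1 being highest (log2 difference 0.18, SE 0.36, adjusted p = 0.9999, edgeR, 0% of 13182 genes called). Without vehicle library 1 the log2 difference of Cd74 was 0.68 (adjusted p = 0.9993, edgeR).

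In KCs, FBs and TCs no member passed the test either, among 0% of 7699, 9419 and 3878 genes called by edgeR. Of the members, 4 had enough counts to be tested in KCs, 2 in FBs and 3 in TCs. Cd74 in KCs was at 40.3, 638, 87.4 and 6.90 CPM after PBMCsec and 0, 2.33, 153 and 7.17 CPM after vehicle. The value of PBMCsec library 2 came from 17 KCs, of which 1 held 94 of the 96 Cd74 UMIs, and without this library the log2 difference turned from 1.58 to -0.19. Without vehicle library 3, where 1 of 272 KCs held 210 of the 400 Cd74 UMIs, it was 4.84. H2-Ab1 in FBs was at 15.9, 8.17, 16.3 and 15.3 CPM against 4.08, 11.5, 11.9 and 10.98 CPM, a log2 difference of 0.45 (SE 0.32) with overlapping groups. In TCs, Cd74 was at 254, 223, 33.1 and 13.2 CPM against 503, 16.3, 180.0 and 15.2 CPM, and the log2 difference of -0.38 turned to 0.85 without vehicle library 1 and was -0.89 without PBMCsec library 1. Equal library numbers deviated together in TCs, and with the number as a block edgeR called 8 of 3878 genes there (0.206%), none of them a member.

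No other gene of the pathway passed the test. Of a list of 36 genes (35 of them in the files) for class II regulation, peptide processing and costimulation, 28 were tested in DCs and macrophages, with 21 higher and 7 lower after PBMCsec, a median log2 difference of 0.25 and 0 called. The 7 members had a median of -0.21, and all 5583 genes a median of -0.0007. Among the 5 most abundant, Ctsb, a cathepsin, was at 1809 ± 815 CPM after PBMCsec and 1080 ± 544 after vehicle, and Ctss, the cathepsin that cuts the invariant chain, at 1618 ± 318 and 1266 ± 128 (log2 difference 0.35, SE 0.18). Lgmn, an endosomal protease, was at 580 ± 227 and 313 ± 135 (log2 difference 0.89, SE 0.36, adjusted p = 0.9997, edgeR). Ctsz and Ctsh differed by 0.34 (SE 0.26) and -0.18 (SE 0.22). Groups overlapped for all 5.

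Class I genes, the other arm of peptide presentation, were tested beside them, 18 of 20, with 11 higher and 7 lower, a median of 0.06 and 0 called. H2-D1, a classical class I chain, was at 3424 ± 361 CPM after PBMCsec and 3259 ± 492 after vehicle, and B2m, its light chain, at 2158 ± 274 and 1912 ± 439. H2-K1, Calr and Psmb8 differed by 0.06 (SE 0.21), 0.09 (SE 0.20) and 0.14 (SE 0.20) log2 units. Cd274, the ligand of the inhibitory receptor PD-1, had the smallest p of both lists and is named here after its values were seen, with 72.8, 73.3, 25.1 and 33.1 CPM after PBMCsec and 26.3, 17.3, 3.22 and 13.8 CPM after vehicle. The groups of Cd274 overlapped in 1 pair of libraries, and the log2 difference was 1.95 (SE 0.56, adjusted p = 0.69, edgeR). It rests on 53, 23, 24 and 19 UMIs after PBMCsec and on only 7, 2, 2 and 5 UMIs after vehicle.

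Across 14 cell classes with at least 30 cells, the genes outside the lists whose pooled levels were most like those of the classical chains and Cd74 were Ptpro, Cd83, Tbc1d9, Rassf4, Napsa, Grk3, Ppfia4 and Fcgr2b, with Pearson r from 0.91 to 0.94 among 4453 genes. The measure runs over classes that share libraries and is a description. Cd83, a surface protein of activated DCs, was at 607 pooled CPM in Langerhans-like cells, 133 in dermal DC-like cells, 229 in macrophage-like cells and 0.303 in FBs. Napsa, an aspartic protease, was at 566, 544, 67.9 and 0.0757 pooled CPM in the same classes. Fcgr2b, an inhibitory Fc receptor, was highest in macrophage-like cells at 913 pooled CPM, against 134 in Langerhans-like cells, an order opposite to that of the members within DCs and macrophages.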

How the data were processed

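The authors made 10x libraries (3′ tags), aligned them to mm10 and deposited filtered matrices of UMI counts per gene and barcode, with values that are whole numbers and not normalized. Per the labels the tool was Cell Ranger 3.0.2, and the study's methods name another version. The members and lists were chosen with earlier results of these data known. The kept cells had 500 to 4000 genes, no more than 20000 UMIs and a mitochondrial share of 5% or less, 3 genes were removed as in the study, and cells were integrated and clustered in Seurat 5.3.0 with 30 dimensions at resolution 1. A cluster was named where at least 3 fixed markers were found. No doublets were removed, and Scrublet called 21 cells. Counts were summed per library and class (at least 10 cells) and tested with edgeR 4.0.16 (filterByExpr, TMM, quasi-likelihood), with DESeq2 1.42.0 and limma 3.58.1 as alternatives, after a check on simulated counts. Two-sided exact permutation tests compared classes within libraries and shares over 70 labellings. The text names all members, the 5 most abundant genes of each list, and the 8 genes most like the classical chains and Cd74 (at least 100 CPM in a class, log2 of CPM + 10). Deviations of libraries with equal numbers correlated above 0.1 in all 4 pairs in TCs (0.14 to 0.45) and in all cells (0.29 to 0.57), and the block changed the count of genes called only in TCs among these. Totals were 14753926 to 37880651 UMIs per library, and intervals and floors cover counting error only.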

Additional observations from a re-analysis of the deposited data

Results flagged for a closer look

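Of 68 groups of 4 libraries examined, 12 held a library far from the other 3. The rule flags about 1 in 20 groups of independent, normal values. These groups share libraries and cells, so the 12 cannot be read against that rate. In KCs of PBMCsec library 2, for example, 1 cell held 207 of the 213 UMIs of the 7 genes. In KCs, PBMCsec library 2 was the highest of its group for H2-Aa (365.4 CPM, the others 8.88 to 43.3), H2-Ab1 (186.0 CPM), H2-Eb1 (172.7 CPM) and Cd74 (637.8 CPM), and vehicle library 3 was highest for Cd74 (152.8 CPM, the others 0 to 7.17). In FBs, H2-Ab1 was lowest of its group in PBMCsec library 2 (8.171 CPM) and in vehicle library 1 (4.085 CPM). In all cells summed, Cd74 was highest of the vehicle group in library 1 (4812 CPM, the others 1551 to 1989). Vehicle library 1 also had the highest share of DCs and macrophages (15.23% of cells), of dermal DC cluster cells (7.285%) and of Langerhans cluster cells (3.974%). The macrophage and monocyte cluster was lowest among PBMCsec libraries in library 3 (2.244%, the others 3.85 to 4.17%).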

How the results depend on the processing

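The alternative runs reuse the same 8 libraries, so their signs are not independent of each other. At resolution 2 each library had the same number of DCs and macrophages as in the main run. No member passed adjustment in DCs and macrophages under any alternative run (smallest adjusted p = 0.52, edgeR, DESeq2 or limma). Of 133 member differences there, 128 lay below 0 (-0.65 to 0.40). The number of genes called there, 0, became 8 with DESeq2, 116 without a filter, 5 with the replicate block, 7 and 1 in libraries 1 and 2 or 3 and 4 alone, 1 without the highest doublet scores, and 0 to 1 with 1 library left out. In KCs it became 11 without a filter and 0 to 5 with 1 library left out, and in TCs 8 with the block, 31 without a filter and 0 to 1 with 1 library left out. At a minimum of 5 cells, 2 classes could be tested. With whole clusters, chosen after the cells were counted, 11 pairs passed, each of them a comparison with FBs. Between classes of DCs and macrophages the lowest adjusted p was then 0.055 (exact permutation test). Deviations of equal-numbered libraries did not all correlate above 0.1 in DCs and macrophages (0.09 to 0.31), FBs or KCs. With the block H2-DMa and H2-DMb1 in DCs and macrophages differed by -0.38 and -0.34 (adjusted p = 0.57 and 0.56, edgeR), lower after PBMCsec in each of the 4 equal-numbered pairs. Directions turned as follows, and the cause was not tested. Ciita in DCs and macrophages went to 0.00030 without a filter and 0.40 in libraries 3 and 4 alone. With 1 library left out, the log2 difference of Ciita there ran from -0.19 to 0.11. In KCs it ran from -0.45 to 3.61 (H2-Aa), -0.0063 to 3.03 (H2-Ab1), -0.36 to 2.38 (H2-Eb1) and -0.19 to 4.84 (Cd74), below 0 only without PBMCsec replicate 2 and highest without vehicle replicate 3. It ran from -0.35 to 1.86 for Cd74 in FBs, and in TCs from -0.92 to 0.46 (H2-Aa), -0.44 to 0.29 (H2-Ab1) and -0.89 to 0.85 (Cd74). In all cells it ran from -0.046 to 0.63 (H2-Aa), -0.068 to 0.61 (H2-Ab1), -0.043 to 0.59 (H2-Eb1), -0.38 to 0.45 (H2-DMa), -0.29 to 0.50 (H2-DMb1) and -0.36 to 1.04 (Ciita), highest without vehicle replicate 1. There H2-DMa, H2-DMb1 and Ciita were 0.11, 0.20 and 0.17 over all barcodes and 0.064, 0.10 and 0.41 with the block. In dermal DC-like cells at 5 cells with the block, H2-Aa was 0.0041, H2-DMb1 0.14 and Ciita 0.031, and in the dermal DC cluster at 5 cells Ciita was -0.037, or -0.015 with the block. Shares of cells differed, PBMCsec minus vehicle, by 2.44 (H2-Aa), 2.75 (Cd74) and 0.40 (H2-DMa) percentage points without thinning and at 2000 UMIs by -7.70 (H2-Ab1), -5.43 (H2-Aa), -10.7 (H2-DMb1), -12.5 (H2-DMa) and -11.9 (Ciita). A library held 15 to 129 DCs and macrophages, which limits the comparisons by class.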
